A study of Mus musculus with 15 samples.

Results

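H3K27ac, an acetylated histone that marks promoters and enhancers in use, was examined at 10 genes of the Hippo pathway in a mouse tumor: the coactivators Yap1 and Wwtr1, the DNA-binding factors Tead1, Tead2, Tead3 and Tead4, the TEAD cofactors Vgll2, Vgll3 and Vgll4, and the kinase Lats2. The members were the peaks that overlapped the RefSeq span of one of these genes in mm10 or the 50 kb on either side of it, and they came to 332 of the 122375 peaks in the list, or 0.271%. Each peak was placed, in this order, at a promoter (within 2 kb of a curated transcription start site of that gene), in the gene body (elsewhere in the span) or in the flank.

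The study made fusion-positive rhabdomyosarcoma, a soft tissue tumor driven by the PAX3-FOXO1 fusion (P3F), in mice with Myf6-Cre (MCP) or Tek-Cre (TCP). Mice of both kinds carried Cdkn2a(Flox/Flox), a floxed tumor suppressor, the allele Pax(3P3F/P3F), which makes P3F once Cre has acted, and the fluorescent reporter R26-tdTom, so they differed in the Cre driver: Myf6-Cre is active in committed myogenic cells and Tek-Cre in endothelial cells and part of the blood lineage. The paper writes the P3F allele as Pax3(P3Fm/P3Fm). The series holds 15 CUT&RUN libraries, an assay in which a tethered nuclease frees the DNA beside an antibody: 6 MCP and 3 TCP libraries for H3K27ac, and 3 of each genotype for the control IgG. The peak list belongs to MCP H3K27ac replicate 5, and the other 14 libraries were not used here.

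With 1 library there was no replicate, no comparison of MCP with TCP and no test, so no interval below covers variation between tumors. Intervals of shares, densities and fragments cover counting error only. Those of medians cover the spread among peaks, taken as independent. The labels describe dissociated tumors passed through a cell sorter with a live/dead stain. In such a bulk sample, fewer cells that carry the mark and less mark per cell cannot be told apart. The labels give no age for the mice.

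In the Hippo pathway a cascade of kinases ending in LATS1 and LATS2 phosphorylates YAP and TAZ (the product of Wwtr1), which keeps them out of the nucleus. When the cascade is off, YAP and TAZ enter the nucleus and bind TEAD factors, which recognize CATTCC in DNA and lead them to genes of growth and cell adhesion. VGLL proteins bind the same TEAD surface and so compete with or replace YAP and TAZ. In skeletal muscle TEAD factors also bind the promoters of muscle genes, and in rhabdomyosarcoma YAP is known as a growth-promoting factor.

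Among the 8 genes with a promoter peak, the strongest peak by fold enrichment was read for the TEAD motif CATTCC and for the E-box CAGCTG, the motif of MyoD, each on both strands. A window of 200 bases was centered on the summit, or the whole peak was taken where it was at most 300 bases. Within these windows 2 of the 8 sequences held CATTCC and 2 held CAGCTG, and these 4 are shown because they are the strongest peaks of their loci and hold a motif, which is in capitals (as written or as its reverse complement). All were read from the plus strand of GRCm38 (mm10) and overlap no exon of the gene. The Yap1 sequence (chr9:8002778-8002977) lies in intron 1 at the promoter, the Tead3 sequence (chr17:28350951-28351057) just upstream of the gene, the Tead4 sequence (chr6:128286003-128286202) in intron 1, and the Vgll4 sequence (chr6:114874029-114874228) in intron 3.
Yap1: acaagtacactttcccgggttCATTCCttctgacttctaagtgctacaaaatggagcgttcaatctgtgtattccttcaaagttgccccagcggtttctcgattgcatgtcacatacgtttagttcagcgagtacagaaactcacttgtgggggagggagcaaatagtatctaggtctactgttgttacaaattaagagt
Tead3: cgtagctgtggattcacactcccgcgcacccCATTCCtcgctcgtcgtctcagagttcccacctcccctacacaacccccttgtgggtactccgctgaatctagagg
Tead4: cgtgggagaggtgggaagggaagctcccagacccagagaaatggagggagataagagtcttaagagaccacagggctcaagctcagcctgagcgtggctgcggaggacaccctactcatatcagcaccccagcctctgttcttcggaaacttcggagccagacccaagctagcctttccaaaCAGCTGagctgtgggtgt
Vgll4: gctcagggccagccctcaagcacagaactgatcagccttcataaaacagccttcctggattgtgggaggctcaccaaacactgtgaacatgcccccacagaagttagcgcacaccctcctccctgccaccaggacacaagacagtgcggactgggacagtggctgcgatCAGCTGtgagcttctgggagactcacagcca

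The Hippo loci were rich in peaks, most of them within the genes. Over the 1.75 Mb of the windows there were 189 peaks per Mb, against 44.9 over the genome, a ratio of 4.22 (exact Poisson 95% interval 3.77 to 4.69). Like those of the density ratios below, this interval treats each peak as independent. Merging peaks within 1 kb left 115 regions, and single loci ran from 0 to 516 per Mb, so it does not cover the spread among loci. Of the 332 peaks, 27 (8.13%, Wilson 95% interval 5.65 to 11.6) lay at promoters, 238 (71.7%, 66.6 to 76.3) in gene bodies and 67 (20.2%, 16.2 to 24.8) in flanks. The same division of the windows of all protein-coding genes put 11.4% of peaks at promoters, 25.9% in gene bodies and 62.7% in flanks. Of the 10 genes, 7 span 51.2 to 227 kb and Tead2, Tead3 and Vgll2 span 5.97 to 19.1 kb, where the median protein-coding gene spans 17.2 kb, and a longer gene body leaves less of the window to the flank.

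The loci differed widely from each other. Vgll4 and Tead4, both on chromosome 6, held 173 of the 332 peaks (52.1%), and Tead2 held none. Chromosome 6 had 59.4 peaks per Mb, the highest value among the chromosomes that carry a member (35.8 to 59.4). Relative to that value the windows of Vgll4 and Tead4 together were 7.60 times as dense (6.51 to 8.82), and the windows of the other 8 genes were 2.62 times as dense as their own chromosomes (2.23 to 3.06).

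**Figure D1:**
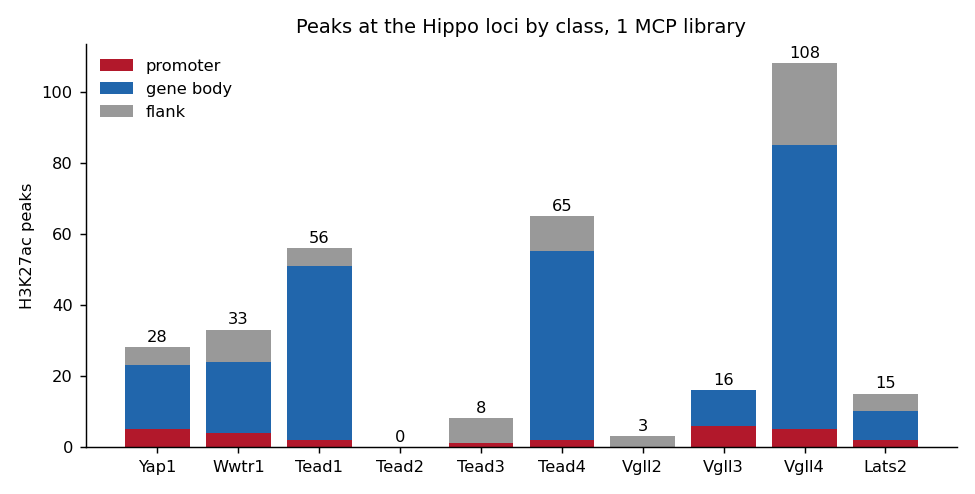
Number of H3K27ac peaks (y axis) at each of the 10 genes in the 1 MCP library, with promoter peaks in red, gene body peaks in blue, flank peaks in gray and the total above each bar. Vgll4 (108), Tead4 (65) and Tead1 (56) held the most peaks, mostly in the gene body, and Tead2 held 0.

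Fold enrichment, as the authors' caller gave it, did not set these peaks apart by its median. Its values fitted summit fragments, scaled for library depth, plus 1 over background plus 1. Of all peaks, 47.3% had the lowest background (1.05). The median was 5.22 at the member loci (order-statistic 95% interval 4.89 to 5.35) and 5.22 over the whole list. Many peaks share this value, which is the fold of 11 fragments over the lowest background. Promoter peaks had a median of 6.94 (6.08 to 9.53), above those of gene bodies (5.10, 4.79 to 5.25) and flanks (5.05, 4.42 to 5.42), with no overlap of the intervals. Neighboring peaks of 1 locus are not independent, so these intervals may be too narrow. Over all genes the medians were 5.55 at promoters and 5.11 elsewhere. The number of fragments over each summit was recovered from the list, with a median of 13.0 and a range of 7 to 51 at the member loci, and 82.2% of the member peaks had under 20 fragments. A fold of 10 or more was reached by 20 peaks (6.02%, against 4.32% of the whole list), of which 9 were at Vgll4, 6 at Tead4, 2 at Tead1, 2 at Wwtr1 and 1 at Tead3.

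At least 1 peak was found in the windows of 9 of the 10 genes, against 76.3% of protein-coding genes, a share not matched for gene span. Promoter peaks were present at 8 of the 10 genes (80.0%, Wilson 49.0 to 94.3), against 44.3% of the 21774 protein-coding genes and 70.3% of genes with promoters of the same CpG content, so the interval lay above the first share and included the second. The genes without one were Tead2 and Vgll2. The highest promoter fold at each of the 8 genes ran from 8.84 at Tead1 to 14.5 at Tead4, while the median over all protein-coding genes with a promoter peak was 7.24. Summits lay on both sides of a start site at 7 of the 8 genes (87.5%), against 57.8% of the 9616 protein-coding genes with a summit within 2 kb. Tead3 was the exception, with its summit upstream only. The share with summits on both sides carries no interval, rests on 8 genes and was not matched for CpG content, so no difference is drawn from it.

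**Figure D2:**
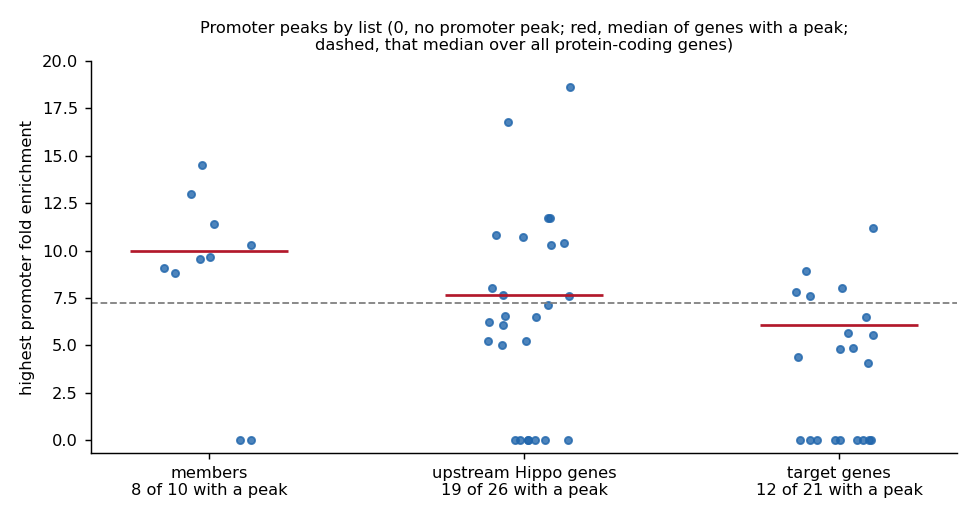
Highest fold enrichment of a promoter peak (y axis) for each of the 10 members, 26 upstream Hippo genes and 21 target genes, in 1 MCP library. Points at 0 are genes with no promoter peak, red bars are the medians of genes with a peak (9.99, 7.67 and 6.08), and the dashed line is the same median over all protein-coding genes (7.24).

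Of the coactivators, Yap1 (gene ID 22601, chr9:7931999-8004638, minus strand) encodes YAP. It held 28 peaks, with 5 at the promoter, 18 in the gene body and 5 in the flank, or 162 per Mb, which is above 84.0% of protein-coding genes. The promoter peaks had folds of 9.67, 7.11, 6.94, 6.13 and 3.57, and the strongest, 1299 bp wide, lay 1.72 kb inside the gene with 26 fragments (exact Poisson 95% interval 17.0 to 38.1). The promoter was thus covered on both sides of the start site, by 4 summits in intron 1 and 1 upstream. Beyond it the enrichment was lower, since no gene body peak exceeded a fold of 6.94, and the 18 had a median of 4.79. Intron 4 carried 6 peaks in 9.15 kb and intron 2 carried 7 in 27.5 kb. One of the flank peaks (fold 5.42) lay at the promoter of the neighbor Cfap300, a gene of cilia.

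Wwtr1 (gene ID 97064, chr3:57455644-57575910, minus strand) encodes TAZ, the paralog of YAP. Its 33 peaks (4 promoter, 20 gene body, 9 flank) gave 149.8 per Mb, above 81.5% of protein-coding genes. The promoter peaks had folds of 10.3, 4.89, 4.61 and 2.82. A gene body peak was about as strong, since a peak of 1970 bp in intron 3, 88.1 kb from the start site, had a fold of 10.1 and 33 fragments (22.7 to 46.3). The strong gene body peaks were thus far from the promoter and in the 3' part of the gene. Only 6 of the 33 peaks had a Wwtr1 start site as the nearest one: 16 were nearest to Tm4sf4 and 11 to Gm16016, genes that are named after their values were seen. Which gene these peaks act on was not measured.

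Among the DNA-binding factors, Tead1 (gene ID 21676, chr7:112679356-112906784, plus strand) encodes the TEAD long known to bind muscle gene promoters. It held 56 peaks (2 promoter, 49 gene body, 5 flank), or 171 per Mb, above 85.5% of protein-coding genes. Introns 1 and 2 are 79.7 and 79.8 kb long, and 26 and 19 peaks had their summits there. The 3' introns were bare by comparison, with 0 peaks in intron 10 (14.5 kb) and 0 in intron 11 (15.5 kb). The strongest peak lay in intron 1, 18.5 kb from the start site, with a fold of 11.8 and 30 fragments (20.2 to 42.8), and the promoter peaks had folds of 8.84 and 6.08. A group of 4 of the 5 flank peaks lay about 16 kb upstream, the strongest with a fold of 9.10.

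Tead2 (gene ID 21677, chr7:45215792-45233468, plus strand) encodes the TEAD best known from early embryos and neural progenitors. No peak overlapped its window, and the nearest summit was 61.8 kb away. Of the genes in its class of promoter CpG content, 64.2% had a promoter peak. The running numbers of the peaks were unbroken across the window, so no row of the list was missing there. A list of peaks gives only what passed the caller's threshold, so weaker signal at Tead2 cannot be seen in it.

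Tead3 (gene ID 21678, chr17:28331671-28350805, minus strand) encodes the TEAD prominent in placenta. Its locus was the opposite of Tead1, with a single strong promoter peak and no gene body peak. The promoter peak, 107 bp wide and shown above with its CATTCC, had a fold of 13.0 and 29 fragments (19.4 to 41.6), above 93.9% of genes with a promoter peak. All 7 flank peaks lay at promoters of other genes, 6 at Rpl10a, which encodes a ribosomal protein, and 1 at Fance, which encodes a DNA repair factor, with folds of 3.35 to 5.65.

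Tead4 (gene ID 21679, chr6:128227143-128300813, minus strand) encodes the TEAD that acts in the trophectoderm and in muscle differentiation. It held 65 peaks (2 promoter, 53 gene body, 10 flank), or 374 per Mb, above 98.7% of protein-coding genes and 97.0% of the 1120 on chromosome 6. The strongest peak of all members was here, in intron 1 at 14.7 kb from the start site, with a fold of 16.5 and 38 fragments (26.9 to 52.2), and 0.244% of all peaks were stronger. It is the E-box sequence shown above. The promoter peaks, 2221 and 1025 bp wide, had folds of 14.5 and 11.2, the former above 96.8% of genes with a promoter peak. Intron 1 carried 27 summits in 29.2 kb, intron 2 carried 14 in 18.9 kb and intron 9 carried 9 in 11.7 kb. By count the peaks thus did not thin out along the gene as they did at Tead1. Their enrichment was lower farther in, with highest folds of 16.5 in intron 1, 6.55 in intron 2 and 5.22 in intron 9. The intron 9 peaks rest on 8 to 13 fragments. The strongest flank peak (fold 15.1, 50 fragments) lay wholly inside the window with its end only 0.110 kb from the upstream edge, and its nearest start site was that of Tulp3, a gene named after its values were seen.

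**Figure D3:**
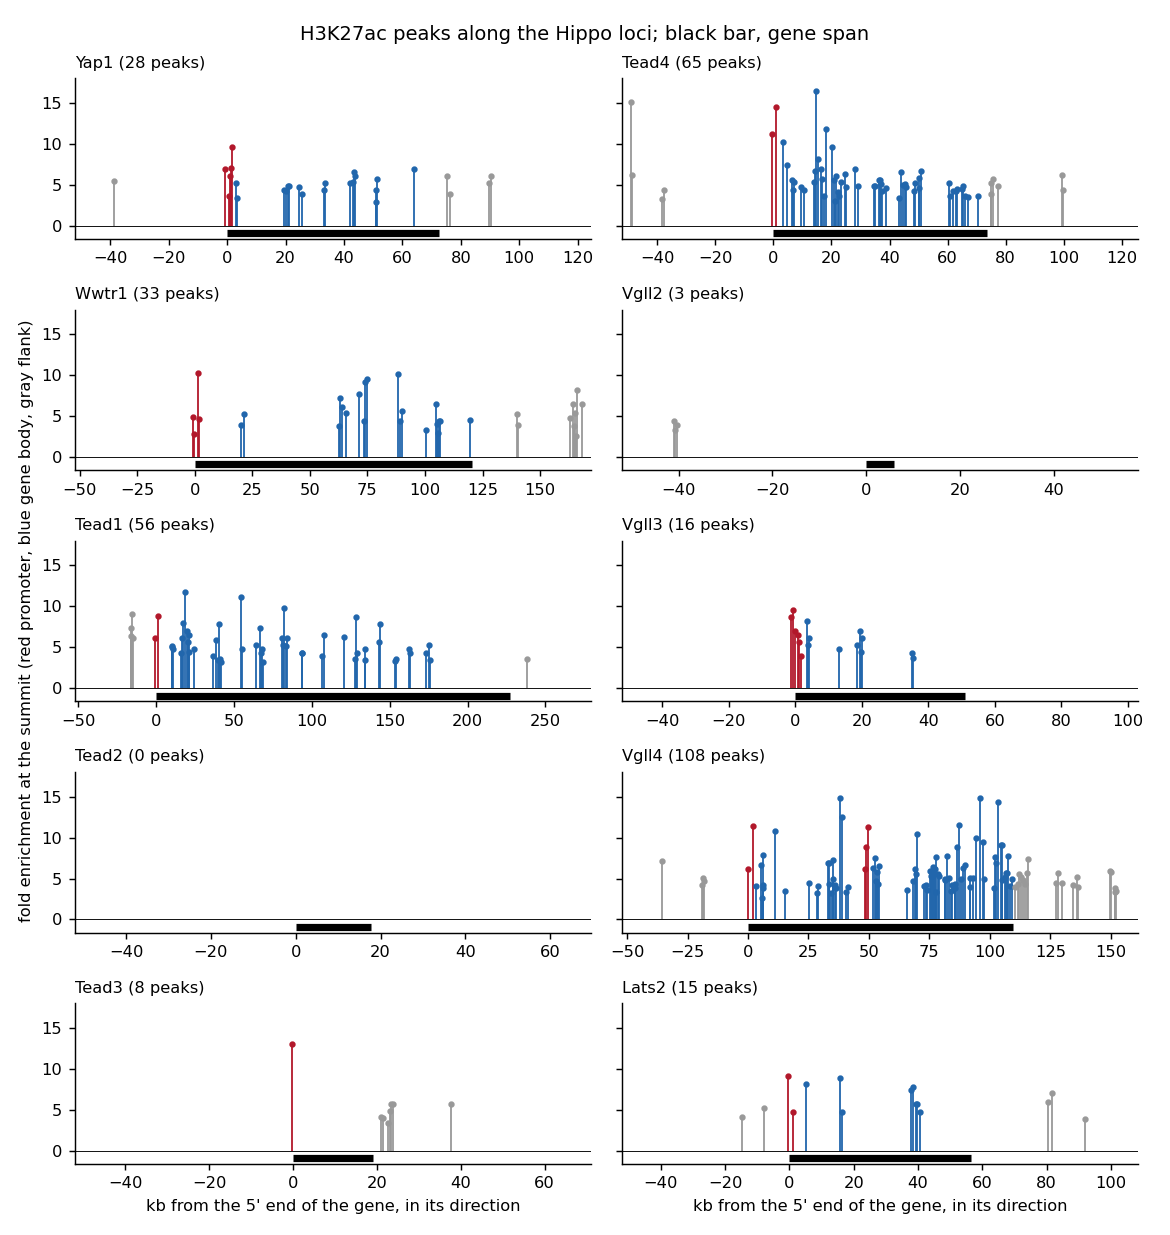
Fold enrichment at the summit (y axis) of each peak against its distance in kb from the 5' end of the gene (x axis, in the direction of transcription) for the 10 loci in 1 MCP library. Red, blue and gray mark promoter, gene body and flank peaks and the black bar is the gene: Tead4 and Vgll4 were filled along their length, Tead3 had 1 tall promoter peak and Tead2 had none.

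Of the TEAD cofactors, Vgll2 (gene ID 215031, chr10:52022502-52028471, plus strand) is best known from skeletal muscle. It had no promoter or gene body peak. The 3 peaks of its window formed a group 40.2 to 41.1 kb upstream, with folds of 4.42, 3.93 and 3.28 and with 14, 8 and 10 fragments. They were among the weaker members, and the density of 28.3 per Mb was above 37.6% of protein-coding genes. The peak numbers were unbroken here too, and 67.8% of genes in its class of CpG content had a promoter peak.

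Vgll3 (gene ID 73569, chr16:65815189-65866368, plus strand) encodes a TEAD cofactor that takes part in myogenesis. All of its 16 peaks lay inside the gene or at its promoter, with 6 at the promoter, the most of any member, 10 in the gene body and 0 in the flank (106 per Mb, above 70.2% of protein-coding genes). The promoter peaks formed a row from 1.19 kb upstream to 1.61 kb downstream of the start site with folds of 8.67, 9.53, 6.94, 6.51, 5.65 and 3.93 in that order. The highest fold was thus upstream of the start site, with 21 fragments (13.0 to 32.1). The strongest downstream peak had 15 (8.40 to 24.7), so these did not differ beyond their counting error. The gene body peaks reached a fold of 8.24 in intron 1 and lay in the 5' part of the gene, with 2 summits in the 20.9 kb of intron 3.

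Vgll4 (gene ID 232334, chr6:114860621-114970007, minus strand) encodes the cofactor known to compete with YAP for TEAD. It was the richest locus, with 108 peaks (5 promoter, 80 gene body, 23 flank), or 516 per Mb, above 99.8% of protein-coding genes and 99.2% of those on chromosome 6. Peaks covered 18.5% of the bases of the window. Of the 108 peaks, 107 had a Vgll4 start site as the nearest one. The gene has 2 curated start sites, and peaks lay at both, with a fold of 11.4 (35 fragments, 24.4 to 48.7) at the distal one and 11.3 (28 fragments, 18.6 to 40.5) at the inner one. Intron 3 carried 27 summits in 26.5 kb and intron 2 carried 43 in 67.1 kb. Strong peaks were found in both introns: folds of 14.9 (42 fragments, 30.3 to 56.8) and 14.3 (32 fragments, 21.9 to 45.2) in intron 3, and of 14.8 (51 fragments, 38.0 to 67.1) in intron 2, and the Poisson intervals of the 3 peaks overlap.

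Lats2 (gene ID 50523, chr14:57689662-57746212, minus strand) encodes the kinase that restrains YAP and TAZ, and is itself known as a YAP target. It held 15 peaks (2 promoter, 8 gene body, 5 flank), or 95.8 per Mb, above 67.0% of protein-coding genes. The strongest was a promoter peak 0.457 kb upstream, with a fold of 9.10 and 20 fragments (12.2 to 30.9), followed by a peak of 1199 bp in intron 2 with a fold of 8.88 and 29 fragments (19.4 to 41.6). These did not differ beyond their counting error. Its other curated start site, inside the gene, had no peak within 2 kb. Of the flank peaks, 2 lay at the promoter of Xpo4, a nuclear transport receptor, the stronger with a fold of 7.11. One peak number was absent between the nearest peaks outside this window, which lie 31.1 and 2.87 kb beyond its edges. Whether it fell inside is not known, so the count may be short by 1.

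In order of density the loci were Vgll4, Tead4, Tead1, Yap1, Wwtr1, Vgll3, Lats2, Tead3, Vgll2 and Tead2. Tead1, Yap1 and Wwtr1 lay close together, at 171, 162 and 149.8 peaks per Mb with 56, 28 and 33 peaks. The median over protein-coding genes was 53.6 per Mb, and 8 of the 10 loci were above it. Leaving out Vgll4 and Tead4 brought the ratio to the genome from 4.22 to 2.58 (2.20 to 3.02).

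**Figure D4:**
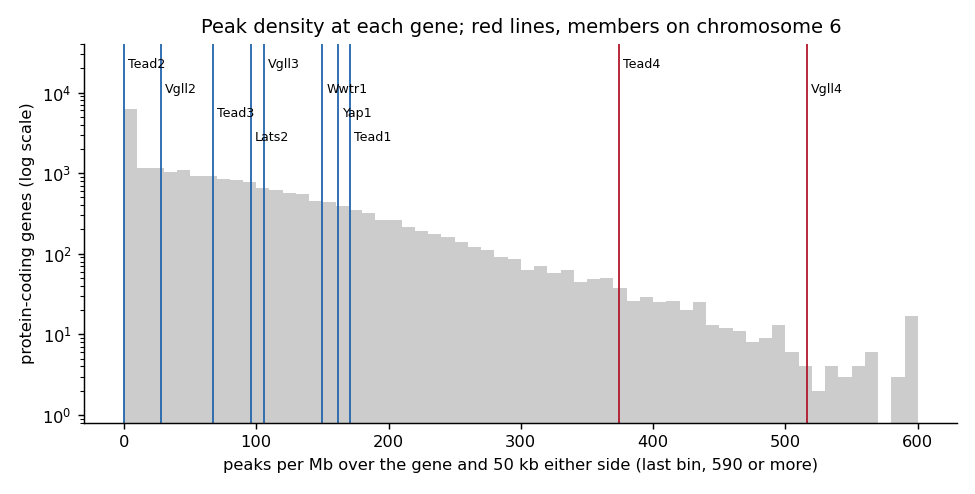
Number of protein-coding genes (y axis, log scale) by peaks per Mb over the gene and 50 kb either side (x axis), with the 10 members as lines, red for those on chromosome 6 and blue for the others. Vgll4 (516) and Tead4 (374) lie in the sparse right tail, and Tead2 (0) and Vgll2 (28.3) lie below the median of 53.6.

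Peaks in the body of the gene were found at 7 of the 10 members, against 32.2% of protein-coding genes, a share not matched for gene span. They were absent at Tead2, Tead3 and Vgll2, the members with spans of 5.97 to 19.1 kb. Of all 332 summits, 249 (75.0%) were in introns, 73 of them in first introns, and 6 in exons. The median distance from the nearest start site of the same gene was 36.5 kb, and 57 peaks (17.2%) were within 10 kb. Peaks of 1 kb or wider numbered 22 (6.63%, against 4.74% of the list), 9 of them at Vgll4 and 6 at Tead4.

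Peaks lying wholly within 1 kb of a start site were then left out, which kept wider peaks at promoters. The rest were joined over the stitching distance the study used for super-enhancers (12.5 kb) and ranked by summed fold times width. Of 20840 clusters, 865 lay above the point where the slope of the ranked curve passes 1, and 3 members overlapped one, against 4.35% of protein-coding genes. These were Vgll4 (rank 16, 96 peaks over 135 kb), Tead4 (rank 104, 59 peaks over 78.3 kb) and Tead1 (rank 752, 37 peaks over 139 kb). A longer gene has more room to overlap a cluster, and these genes span 109, 73.7 and 227 kb, against a median of 17.2 kb. The share of 4.35% was not matched for span. Wwtr1 was next at rank 913, just below the limit, and Yap1, Vgll3 and Lats2 ranked 3421, 2649 and 2679. Vgll4 and Tead4 were above the limit under each of the 4 alternatives tried, and Tead1 under 1 of them (scoring by width). Wwtr1 was above it when the strongest 25% of the list was used. The score is built from peak values of 1 list and is not the read coverage that the ROSE program uses. Promoter signal is part of it: the Tead4 cluster holds promoter peaks of folds 14.5 and 11.2, and the Vgll4 cluster ends with the promoter peak of fold 11.4.

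The share of distal peaks with a TEAD motif was close to that of distal peaks in general. CATTCC stood within 150 bp of the summit in 46 of 305 distal member peaks (15.1%, 11.5 to 19.5), against 17.3% of the 97334 peaks outside promoters. The 2 sets follow unlike rules: the 97334 leave out promoters of all protein-coding genes. The 305 leave out only those of the member itself and keep 10 flank peaks at promoters of other genes. The E-box CAGCTG was found in 18.0% (14.1 to 22.7) against 15.1%, the MEF2 motif in 4.92% (3.00 to 7.95) against 5.50%, and the paired homeodomain motif in 0.984% (0.335 to 2.85) against 0.708%. The background lay inside all 4 of these intervals. For the AP-1 motif TGANTCA it did not, since 9.51% (6.70 to 13.3) of the distal member peaks held it against 15.9%. Of the 305 peaks, 103 were at Vgll4 and 63 at Tead4, and neighboring peaks of 1 locus are not independent. The interval may therefore be too narrow, and a lower AP-1 share across the loci is not shown. None of these motifs contains another.

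The TEAD motif was unevenly spread among the loci. At Tead4 it stood near 18 of 63 distal summits (28.6%, 18.9 to 40.7), and at Vgll4 near 9 of 103 (8.74%, 4.67 to 15.8), with intervals that did not overlap and that lay on either side of 17.3%. Tead1 was close to the background with 10 of 54 (18.5%, 10.4 to 30.8). E-box shares at Tead4 (17.5%, 10.0 to 28.6) and Vgll4 (19.4%, 12.9 to 28.1) overlapped in their intervals. These 2 loci were singled out after their values were seen, and neighboring peaks of 1 locus are not independent.

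**Figure D5:**
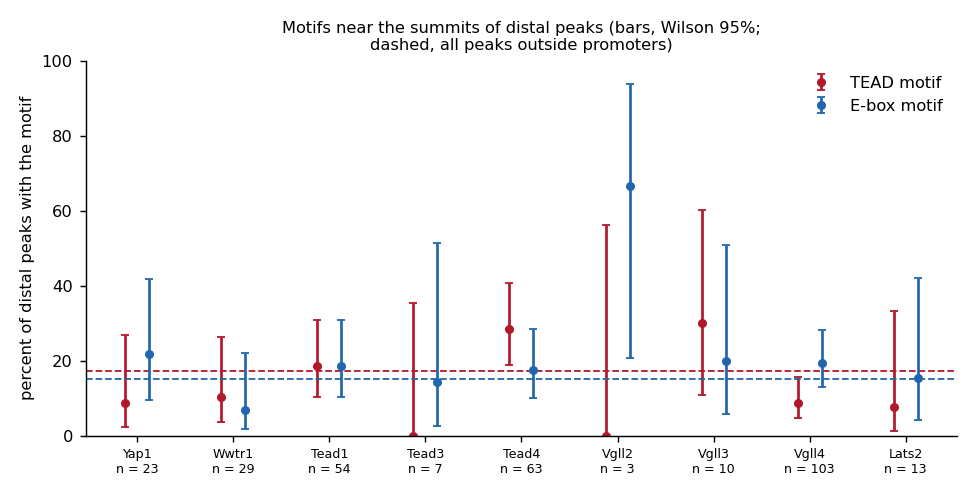
Percent of distal peaks (y axis) with the TEAD motif (red) or the E-box motif (blue) within 150 bp of the summit at the 9 genes that have distal peaks, with Wilson 95% intervals as bars and the shares over all peaks outside promoters as dashed lines (17.3% and 15.1%). The TEAD share was above its line at Tead4 (28.6%) and below it at Vgll4 (8.74%), and the other TEAD intervals include the line. Of the E-box intervals, that of Vgll2 (2 of 3 peaks) lies above its line.

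The TEAD motif was also counted at promoters. Of the 27 member promoter peaks, 8 held CATTCC within 150 bp of the summit (29.6%, 15.9 to 48.5), against 15.2% of the 25041 promoter peaks of all genes. The interval overlaps that of the distal member peaks (11.5 to 19.5). The 27 peaks come from 8 genes, and neighboring peaks of 1 promoter are not independent. The interval may therefore be too narrow, and a higher share at promoter peaks is not shown. In the RefSeq promoter table (GRCm38, 300 bases around each start site), 8 of the genes were matched by symbol with 12 promoters, and 8 of the 12 held CATTCC on either strand, against 14.7% of all promoters in the table and 11.9% of those of genes with a promoter peak. By gene, 6 of the 8 had it: Yap1, Wwtr1, Tead3, Vgll3, Vgll4 and Lats2. The exceptions were Tead2 and Vgll2, the genes without a promoter peak. Promoters of 1 gene overlap, Tead3 having 3 of the 12 and Wwtr1 and Lats2 having 2 each, so they are not independent, and Tead1 and Tead4 were not among the matched genes. A match of 6 letters is not evidence of binding, and no TEAD occupancy was measured.

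The rest of the pathway was read from fixed lists. Of 26 genes upstream of YAP, kinases, scaffolds and adhesion proteins together with the TEAD cofactor Vgll1 and the adaptor Ywhaq, 19 had a promoter peak (73.1%, 53.9 to 86.3), against 66.1% at the same promoter CpG content. The highest promoter folds were those of Map4k4 (18.6), a kinase that acts on LATS, Sav1 (16.8), the scaffold of the MST kinases, and, with the same value, Stk3 (11.7), which encodes MST2, and Rassf1 (11.7), a scaffold that binds the MST kinases. The 7 genes without one were Stk4, which encodes MST1, Mob1b, a LATS cofactor, Wwc1, a scaffold also known as KIBRA, the cadherins Fat4 and Dchs1, the YAP-binding Amot, and Vgll1. Map4k4 had 96 peaks in its window and Fat4 had 0. A pair of paralogs thus differed at the promoter here, since Stk3 had a peak and Stk4 had none.

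Of 21 genes in a commonly used signature of YAP and TAZ targets, 12 had a promoter peak (57.1%, 36.5 to 75.5), close to the 58.7% of genes at the same CpG content. The highest folds were those of Rbms3 (11.2), an RNA-binding protein, Gadd45a (8.92), a stress response gene, and Amotl2 (8.0), which binds YAP and is in both lists, as is Ptpn14. The 9 genes without one were Ccn2, the matricellular gene most often used to read YAP activity, F3, Igfbp3, Fjx1, Foxf2, Ccdc80, Nt5e, Nuak2 and Tgfb2. Of these, 8 had peaks elsewhere in their windows, with 38 at Nuak2 and 19 at Tgfb2, and F3 had 0. A cluster above the limit overlapped 4 of the 26 upstream genes and 4 of the 21 target genes, against 4.35% of protein-coding genes. That last share was not matched for gene span.

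Markers of cell types were checked in the same way. Of 14 myogenic markers, 2 had a promoter peak (14.3%, Wilson 4.01 to 39.9, against 46.6% of genes at the same CpG content). These were Pax3 (fold 18.1), which is also the locus engineered to carry P3F, and Myf6 (5.97), the source of the Cre. The defining genes Myod1 and Myog had none. Peaks elsewhere in the window were common, since 11 of the 14 had at least 1 peak, with 44 at Pax3, 36 at Myf6 and 29 at Myf5, genes above 92.3%, 98.2% and 95.9% of protein-coding genes in density, 11 at Myod1 and 0 at Myog. Myf5 and Myf6 are neighbors whose windows share peaks. Promoter peaks were found at 1 of 14 endothelial markers (Cd34, 7.14%, 1.27 to 31.5, against 41.0% at the same CpG content). They were also found at 2 of 6 macrophage markers (Cd68 and Cd14, 33.3% against 11.6%) and at 2 of 6 fibroblast markers (Pdgfra and Col3a1, 33.3% against 29.4%). The interval of both last shares, 9.68 to 70.0, includes the share at the same CpG content, so no difference is shown for these sets. The part of other cells in the values at the Hippo loci was not tested.

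The limit of the windows fell between peaks at several loci. Just outside lay a peak at Tead3 (fold 3.93, 0.247 kb beyond the edge), at Vgll3 (5.65, 0.834 kb), at Lats2 (7.80, 2.87 kb) and at Tead4 (4.79, 3.44 kb). Just inside lay the Tead4 peak of fold 15.1 and a Wwtr1 peak of fold 6.51, 2.13 kb within the edge.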

How the data were processed

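CUT&RUN for H3K27ac was performed in MCP and TCP tumors, and the deposited narrowPeak list of MCP H3K27ac replicate 5 was used. Its peaks carry the number given in that library's description. The methods of the study name bowtie and an early MACS with a threshold on the p-value, after reads on a list of problem regions or in an amplified stretch by Col19a1 had been removed. The submitters' processing notes name BWA, SAMtools and MACS2, so the settings behind the list are not given in the sources used here. In 100.0% of the rows the deposited score equaled 10 times the -log10 q, cut to a whole number. The fold enrichment was computed by the authors' caller and fitted a ratio of scaled summit fragments to background, each with 1 added. The deposited -log10 p and -log10 q belong to the same summit, with a largest q of 0.0471. Peak numbers have 584 gaps, 1 of them in or beside the loci described, between the nearest peaks outside the Lats2 window.

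Peaks were assigned by an overlap of at least 1 bp to spans and curated start sites of the RefSeq annotation of GRCm38 (mm10), with no filter on low values. Density was set beside chromosomes 1 to 19, X and Y, and CpG content was measured within 500 bp of the start site in 10 strata. Whole fragments were solved from fold and p with 1 scale (0.884) between the H3K27ac and IgG libraries, which fitted 99.8% of the peaks within 0.001 and put the H3K27ac depth at 1.13 times that of IgG. They are inferences and not read counts, and without molecular identifiers they are not independent molecules. For the clusters, peaks lying wholly within 1 kb of a start site were left out and the rest were stitched, so wider promoter peaks were kept.

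The members and the lists were chosen with earlier results of these data known. The text names all members with their strongest peaks, the 3 highest and all genes without a promoter peak of the upstream and target lists, neighbors with a promoter at a flank peak, and markers fixed by name. Shares carry Wilson intervals, medians order-statistic intervals and fragments exact Poisson intervals. Alternatives were stricter lists, summit overlap, narrower windows, all annotated start sites, merging, other stitching and other motif windows. Fragment recovery, the peak classes, the motif search and the stitching were tested on simulated data, and the other steps were not. The software was Python 3.11.15, pandas 2.3.3, scipy 1.17.1 and pysam 0.24.0.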

Additional observations from a re-analysis of the deposited data

How the results depend on the processing

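Members with a promoter peak stayed at 8 under all 5 alternatives. Of the 59 values recomputed in all, 40 stayed within the interval of the main value or, for counts, within 1.5 times the main count. With a -log10 q of at least 5, the loci held 163 peaks, 112 of them in gene bodies and 28 in flanks, with a median fold of 6.51. With the strongest 25% of the list they held 91, with 17 at promoters, 63 in gene bodies and 11 in flanks, a median fold of 7.80 and 5 target genes with a promoter peak. Fewer peaks were kept by construction. Merging peaks within 1 kb left 115 regions. A flank of 10 kb left 21 flank peaks and raised the density ratio to 6.68. The TEAD share of distal peaks was 5.90% within 50 bp of the summit and 5.25% for the longer ACATTCC, where all peaks outside promoters gave 5.86% and 5.41%. Leaving out the chromosome 6 members, an alternative chosen after seeing the data, gave 159 peaks, 105 in gene bodies and 34 in flanks, and a density ratio of 2.58. No paired analysis was possible because 1 peak list of 1 library was used, and no replicate could be left out. Most peaks rest on under 20 fragments, so folds of neighboring ranks are not told apart, and absence from the list is not absence of the mark.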
